A study of Sus scrofa with 5 samples.

Results

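The nuclei described here are those of the abdominal aorta of Ossabaw pigs that held transcripts of a small pericyte panel. A nucleus was counted when it had at least 1 UMI (a unique molecular identifier, 1 counted RNA molecule) of at least 2 of the 6 genes RGS5, ABCC9, KCNJ8, STEAP4, HIGD1B and COX4I2, and no UMI of PECAM1, CSF1R or CD163. Of 45505 nuclei with 300 or more genes, 2894 met this rule, which is 6.36%. They were set beside 17448 smooth muscle nuclei, which held at least 3 of the 7 genes MYH11, ACTA2, LMOD1, SYNPO2, CNN1, MYLK and SMTN and none of the panel. The panel was proposed as a definition of pericytes, but the other pericyte genes described below did not set these nuclei apart from smooth muscle, so they are called RGS5-ABCC9 nuclei after the genes that lead them.

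The pigs were castrated males aged 12 months when the diets began. The 3 obese pigs ate a diet the labels call HF/HFru, taken here as high in fat and fructose, and the 2 control pigs ate chow. The diets lasted 6 months by one label and 9 months by another. Ossabaw pigs are a feral strain used to model diet-induced obesity, and nothing else, such as an allele or a drug, was named for either group. Pieces of snap-frozen aorta were dissociated, nuclei stained with the DNA dye DRAQ5 were sorted, and each sample went through its own droplet reaction for 3′ single-nucleus RNA sequencing, with no sort for any cell type. Each library is taken as 1 pig. The labels number the libraries as replicates but do not state that they came from different animals, and if they did not, the p-values measure the spread between libraries.

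Pericytes are mural cells that lie inside the basement membrane of capillaries and small venules, where they contact the endothelium. They are recruited by endothelial PDGF-B through the receptor PDGFRB, are kept in place partly through NOTCH3, and return signals such as angiopoietin 1. In a large artery they are known from the vasa vasorum, the small vessels that supply the outer wall. KCNJ8 and ABCC9 encode the pore and the regulatory subunit of an ATP-sensitive potassium channel, and RGS5 is a regulator of G-protein signalling that arterial smooth muscle also expresses.

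The libraries held 22400089, 35655806 and 29717314 UMIs in obese pigs 1 to 3, and 47724416 and 21516249 UMIs in control pigs 1 and 2. The RGS5-ABCC9 nuclei numbered 374, 552 and 388 in the obese pigs, and 1185 and 395 in the control pigs. They were deep: their median UMI count was 5524.5, 5356 and 5634.5 in obese pigs, and 5479 and 6428 in control pigs. The smooth muscle nuclei had medians of 2071.5, 2350.5 and 1826 UMIs in obese pigs, and 2388 and 2292 UMIs in control pigs. A rule that asks for UMIs of 2 genes favours deep nuclei, and among nuclei with 8000 or more UMIs 16.4% to 26.4% met it, against 0.26% to 1.43% of those with 500 to 1000 UMIs. Of 45580 barcodes, 199 occurred in more than 1 library.

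RGS5 and ABCC9 carried the selection. RGS5 was found in 94.1% of the members and ABCC9 in 91.1%, and for 2295 nuclei (79.3%) these were the only panel genes present. COX4I2, a subunit isoform of cytochrome c oxidase, was found in 10.2%, KCNJ8 in 8.95%, HIGD1B, a mitochondrial membrane protein gene, in 1.80%, and STEAP4, a metalloreductase gene, in 0.587%. These values chose the members and are a description. Just inside the threshold, 2712 nuclei (93.7%) held 2 panel genes, and 182 (6.29%) held 3 or more, of which 11 held 4. Just outside it lay 11670 nuclei with 1 panel gene and none of the 3 excluding genes. Another 553 nuclei had 2 or more panel genes but were left out for PECAM1, CSF1R or CD163.

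The panel genes differed between pigs within the members. RGS5 stood at 385, 424 and 415 CPM (a gene's UMIs scaled to a total of 1000000 UMIs over a pig's member nuclei) in obese pigs, and at 560 and 430 CPM in control pigs. KCNJ8 stood at 28.1, 17.1 and 20.0 CPM in obese pigs, and at 11.4 and 10.0 CPM in control pigs. ABCC9 spanned 285 to 365 CPM in obese pigs, a range that held both control values of 334 and 326 CPM. COX4I2 stood at 12.6, 16.6 and 16.3 CPM in obese pigs, and at 17.3 and 21.4 CPM in control pigs. So the values of RGS5, COX4I2 and KCNJ8 did not overlap between the groups, RGS5 and COX4I2 lower and KCNJ8 higher in obese pigs. For RGS5 the gap was narrow, with 424 CPM as the highest obese value and 430 CPM as the lower control value. It was narrow for COX4I2 too. Values did not overlap for 29.3% of all genes tested for the diet effect in members. RGS5, COX4I2 and KCNJ8 helped to choose the members, so as genes of the rule they were not tested.

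The members were also smooth muscle by the smooth muscle panel. Of the 2894 nuclei, 2671 (92.3%) held 3 or more of its 7 genes, 323 (11.2%) held all 7, and 10 held none. The share with 3 or more was 87.7%, 90.0% and 95.1% in obese pigs, and 92.9% and 95.2% in control pigs. Most nuclei of any kind met this too: of all 45505 nuclei with 300 or more genes, 31621 held 3 or more. Members were also deeper than smooth muscle nuclei, and a rule that asks for UMIs favours deep nuclei. MYH11, the smooth muscle myosin heavy chain, averaged 2940 ± 350 CPM in members and 2842 ± 330 CPM in smooth muscle nuclei (SD, n = 5 pigs). ACTA2, smooth muscle actin, averaged 1668 ± 628 CPM in members and 1499 ± 555 CPM in smooth muscle nuclei. MYH11 was higher in members in 3 of 5 pigs, and ACTA2 and SYNPO2 in 5 of 5 pigs (SYNPO2 at 1.30-fold). LMOD1, CNN1 and SMTN were lower in members in 5 of 5 pigs, at ratios of 0.780, 0.716 and 0.885. These 7 genes chose the smooth muscle nuclei, so their levels are a description.

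Genes that mark pericytes but were not used for the choice told little between the classes. PDGFRB, the PDGF-B receptor, stood at 92.0, 108 and 116 CPM in obese and 68.4 and 86.2 CPM in control members. In smooth muscle nuclei it stood at 100, 114 and 175 CPM in obese pigs, and at 76.4 and 95.9 CPM in control pigs, so it was lower in members in 5 of 5 pigs. NOTCH3, the mural Notch receptor, averaged 129 CPM in members and 124 CPM in smooth muscle nuclei and was higher in members in 3 of 5 pigs. ANPEP, the aminopeptidase CD13, averaged 13.5 CPM in members and 19.6 CPM in smooth muscle nuclei and was lower in members in 5 of 5 pigs. CSPG4, the proteoglycan NG2, averaged 207 CPM in members and 223 CPM in smooth muscle nuclei. Members were higher in 5 of 5 pigs for 4 further genes, by small ratios: EBF1, a transcription factor of mural cells (1.16-fold), GJC1, the gap junction protein connexin 45 (1.26-fold), INPP4B, a phosphoinositide phosphatase (1.26-fold), and LHFPL6 (1.25-fold).

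Of the 25 other pericyte genes, 16 reached 5 CPM in the higher class. Of these, 4 were higher and 4 lower in members in 5 of 5 pigs, with a median log2 ratio of members over smooth muscle nuclei of -0.08. Over all 10482 genes at 5 or more CPM, 9.02% were higher and 25.4% lower in members in 5 of 5 pigs, with a median log2 ratio of -0.11. These levels were not tested, because both classes were defined from the same nuclei.

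A small set of genes stood higher in the RGS5-ABCC9 nuclei. Among 3569 genes at 50 or more CPM in the higher class, 21 were at least 1.5-fold higher in members in 5 of 5 pigs (0.588%) and 127 were at least 1.5-fold lower (3.56%). With smooth muscle nuclei that also lacked PECAM1, CSF1R and CD163, as the members do, 13 genes were higher and 58 lower. After every nucleus was thinned to 1000 UMIs, 89 were higher and 67 lower. Both classes were chosen again on the thinned counts. This left 66, 96 and 69 members in obese pigs, and 229 and 75 in control pigs. Values of the classes after thinning therefore come from fewer and partly other nuclei, not from the same nuclei at lower depth.

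ANGPT1, the secreted ligand of the endothelial receptor TIE2, was among the few genes at 2-fold or more. It stood at 57.0, 95.2 and 48.8 CPM in obese and 61.7 and 51.7 CPM in control members. In smooth muscle nuclei it stood at 40.8, 33.1 and 20.7 CPM in obese pigs, and at 36.6 and 25.7 CPM in control pigs. Members were thus 2.00-fold higher, with no overlap between the classes, and 4.37-fold higher over all pigs after thinning (80 UMIs in members). CSMD3, a large transmembrane protein with CUB and sushi repeats, averaged 72.0 ± 19.8 CPM in members and 24.1 ± 5.87 CPM in smooth muscle nuclei (SD, n = 5), a ratio of 2.99. ANO3, of the anoctamin family, averaged 55.6 ± 36.1 CPM in members and 21.7 ± 15.2 CPM in smooth muscle nuclei, a ratio of 2.56. Both genes kept their direction after thinning, CSMD3 at 3.59-fold and ANO3 at 6.49-fold.

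Of the 15 highest ratios, 11 lay between 1.54 and 1.78. They included abundant genes: PDZRN4, a PDZ and RING finger protein gene, averaged 4836 CPM in members and 2861 CPM in smooth muscle nuclei. PDE3A, a cyclic nucleotide phosphodiesterase, averaged 4852 CPM in members and 3158 CPM in smooth muscle nuclei. SEMA3E, a semaphorin that signals to endothelial plexin D1, averaged 1054 CPM in members and 616 CPM in smooth muscle nuclei. The remaining 8 were PKIA, CNTN1, MMP16, EFEMP1, PTGER3, WIF1, ZC2HC1A and KIFAP3. After thinning to 1000 UMIs per nucleus some no longer stood higher. The pooled ratio was then 1.49 for PDZRN4 and 1.63 for PDE3A, but 1.18 for SEMA3E, 0.934 for PTGER3, 0.931 for CNTN1 and 0.785 for EFEMP1.

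At the lower end, BMP6, a ligand of the TGF-β family, averaged 11.5 CPM in members and 92.9 CPM in smooth muscle nuclei, a ratio of 0.123. The other 9 lowest ratios belonged to UBASH3B, COL23A1, RBM47, PRKCH, ARHGAP15, LCP1, TSPAN5, CADM1 and WDFY4, the highest of them at 0.196. LCP1, an actin-bundling protein of leukocytes, averaged 10.1 CPM in members and 59.2 CPM in smooth muscle nuclei. The smooth muscle rule has no excluding genes, and with them the log2 ratio of BMP6 was -1.08 and that of COL23A1 -0.37. After thinning, BMP6 had 14 UMIs in members and a pooled ratio of 1.15. Its ratio of mean CPM, the measure used for 0.123, was then 0.748, and members were higher in only 1 pig. So BMP6 did not turn higher in members across the pigs. The other 9 pooled ratios ran from 0.304 to 0.752 on 3 to 15 UMIs each.

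**Figure D1:**
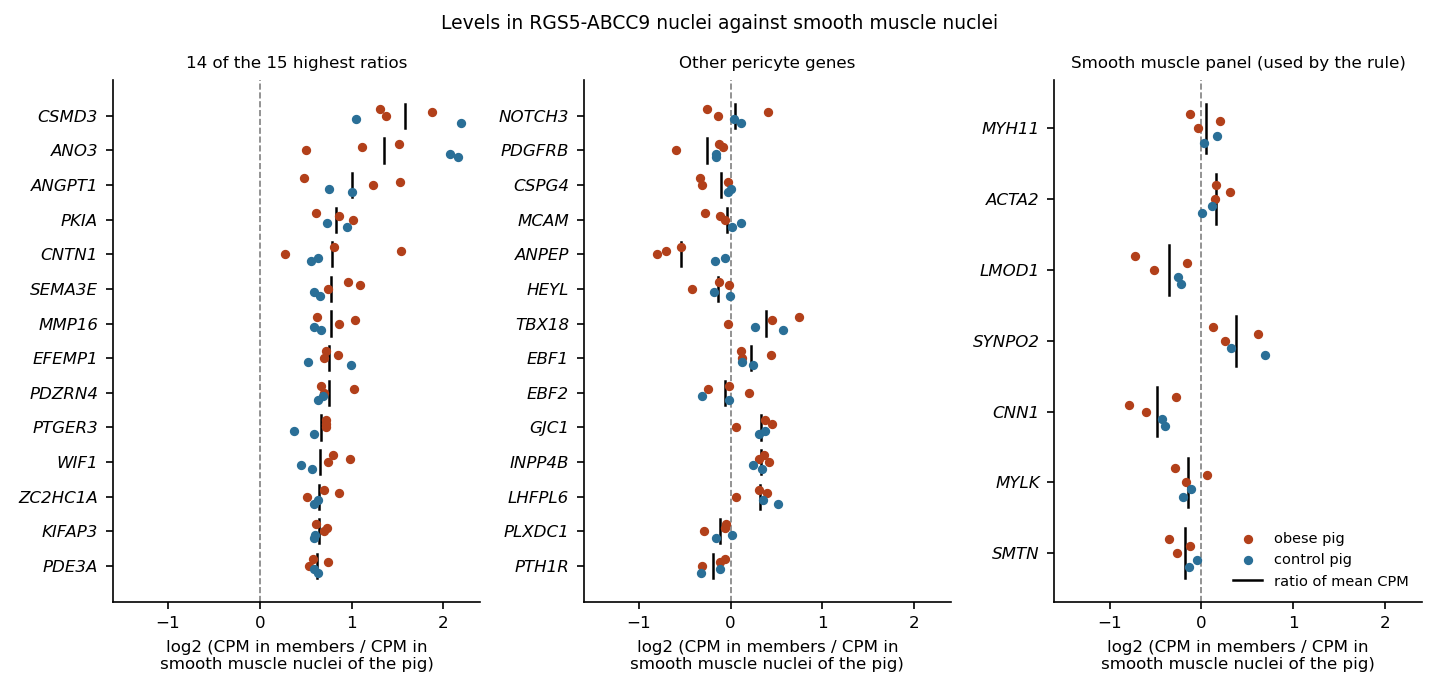
Log2 ratio of CPM in RGS5-ABCC9 nuclei over CPM in smooth muscle nuclei of the same pig, 1 point per pig (3 obese, 2 control), for 14 of the 15 genes of highest ratio, 14 other pericyte genes and the smooth muscle panel. These 14 genes lie right of 0 in 5 of 5 pigs, while PDGFRB, ANPEP and HEYL lie left of 0 and MYH11 straddles it.

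The higher genes were not spread alike over the members. ANGPT1, ANO3 and CSMD3 stood far higher in members with STEAP4 or HIGD1B and in members with KCNJ8. SEMA3E, PDZRN4, MMP16, CNTN1 and ZC2HC1A stood higher than in smooth muscle nuclei in the majority with RGS5 and ABCC9 alone. With STEAP4 or HIGD1B their ratios to smooth muscle nuclei over all pigs were 0.648 to 0.845, but only SEMA3E was lower in 5 of 5 pigs. With KCNJ8 their ratios were 1.22 to 1.51. PDE3A, PKIA, PTGER3, KIFAP3, EFEMP1 and WIF1 also stood higher in members with RGS5 and ABCC9 alone. Over all pigs these were not lower than smooth muscle nuclei with STEAP4 or HIGD1B. The ratios there were 1.97 for PDE3A, 1.40 for PKIA, 1.28 for PTGER3, 1.24 for KIFAP3 and 1.02 for EFEMP1 and WIF1. Of these genes only PDE3A was higher in 5 of 5 pigs. STEAP4 or HIGD1B was present in 69 nuclei, 16, 16 and 9 of the obese pigs and 22 and 6 of the control pigs. KCNJ8 was present in 259 nuclei, 60, 57 and 46 of the obese pigs and 74 and 22 of the control pigs, with 10 nuclei holding both KCNJ8 and HIGD1B. All of these nuclei were chosen on measured genes, so the values below are a description. CPM are summed over all pigs, and EDNRB, GUCY1A2, STAC, FHL5, RGS6 and CTNNA3 were picked after their values were seen.

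ANGPT1 stood at 561 CPM in members with STEAP4 or HIGD1B, at 161 CPM in members with KCNJ8, at 47.3 CPM in members with RGS5 and ABCC9 alone, and at 31.3 CPM in smooth muscle nuclei. In the STEAP4 or HIGD1B nuclei it was 386, 376 and 701 CPM in obese pigs, and 689 and 579 CPM in control pigs, above smooth muscle in 5 of 5 pigs. ANO3 followed the same order at 576, 196, 23.8 and 20.8 CPM, and CSMD3 at 471, 317, 32.6 and 23.7 CPM. Thus, against smooth muscle nuclei, the STEAP4 or HIGD1B nuclei were 17.9-fold higher for ANGPT1, 27.7-fold for ANO3 and 19.9-fold for CSMD3.

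Some genes outside the naming rule were also high in these nuclei. EDNRB, the endothelin receptor type B, stood at 400 CPM with STEAP4 or HIGD1B, at 152 CPM with KCNJ8, at 17.3 CPM with RGS5 and ABCC9 alone, and at 22.0 CPM in smooth muscle nuclei. In the STEAP4 or HIGD1B nuclei it was 298, 658 and 310 CPM in obese pigs, and 255 and 606 CPM in control pigs. GUCY1A2, a subunit of the nitric oxide receptor soluble guanylate cyclase, stood at 357, 116, 20.0 and 17.8 CPM in the same order of classes, 20.1-fold higher in the STEAP4 or HIGD1B nuclei than in smooth muscle. GJC1 stood at 1035, 328, 115 and 124 CPM, and EBF1 at 3691, 2252, 1670 and 1488 CPM. Each of these 4 genes was higher with STEAP4 or HIGD1B than in smooth muscle nuclei in 5 of 5 pigs. STAC, which modulates calcium channels, was 9.85-fold, FHL5, a LIM-domain cofactor, 4.07-fold, RGS6 3.85-fold and CTNNA3, an alpha-catenin, 3.35-fold higher.

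Other genes ran the opposite way or differed less clearly. PDZRN4 stood at 2288 CPM with STEAP4 or HIGD1B, at 3424 CPM with KCNJ8, at 5061 CPM with RGS5 and ABCC9 alone, and at 2801 CPM in smooth muscle nuclei. SEMA3E stood at 408, 816, 1170 and 629 CPM in the same order, so both were highest in nuclei with RGS5 and ABCC9 alone. ACTA2 stood at 738 CPM with STEAP4 or HIGD1B and at 1537 CPM in smooth muscle nuclei, lower in 5 of 5 pigs, but was still present. PDGFRB stood at 206 CPM with STEAP4 or HIGD1B, at 143 CPM with KCNJ8 and at 79.5 CPM with RGS5 and ABCC9 alone. In smooth muscle nuclei PDGFRB stood at 113 CPM. NOTCH3 stood at 156, 112, 135 and 124 CPM in the same order of classes. Both genes were higher with STEAP4 or HIGD1B than in smooth muscle nuclei in 4 of 5 pigs. ENPEP, aminopeptidase A, was low throughout, at 37.8 CPM with STEAP4 or HIGD1B and 1.92 CPM in smooth muscle nuclei, and was higher in 2 of 5 pigs. PTGER3, a prostaglandin receptor, was 1.28-fold higher with STEAP4 or HIGD1B than in smooth muscle nuclei, in 2 of 5 pigs.

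**Figure D2:**
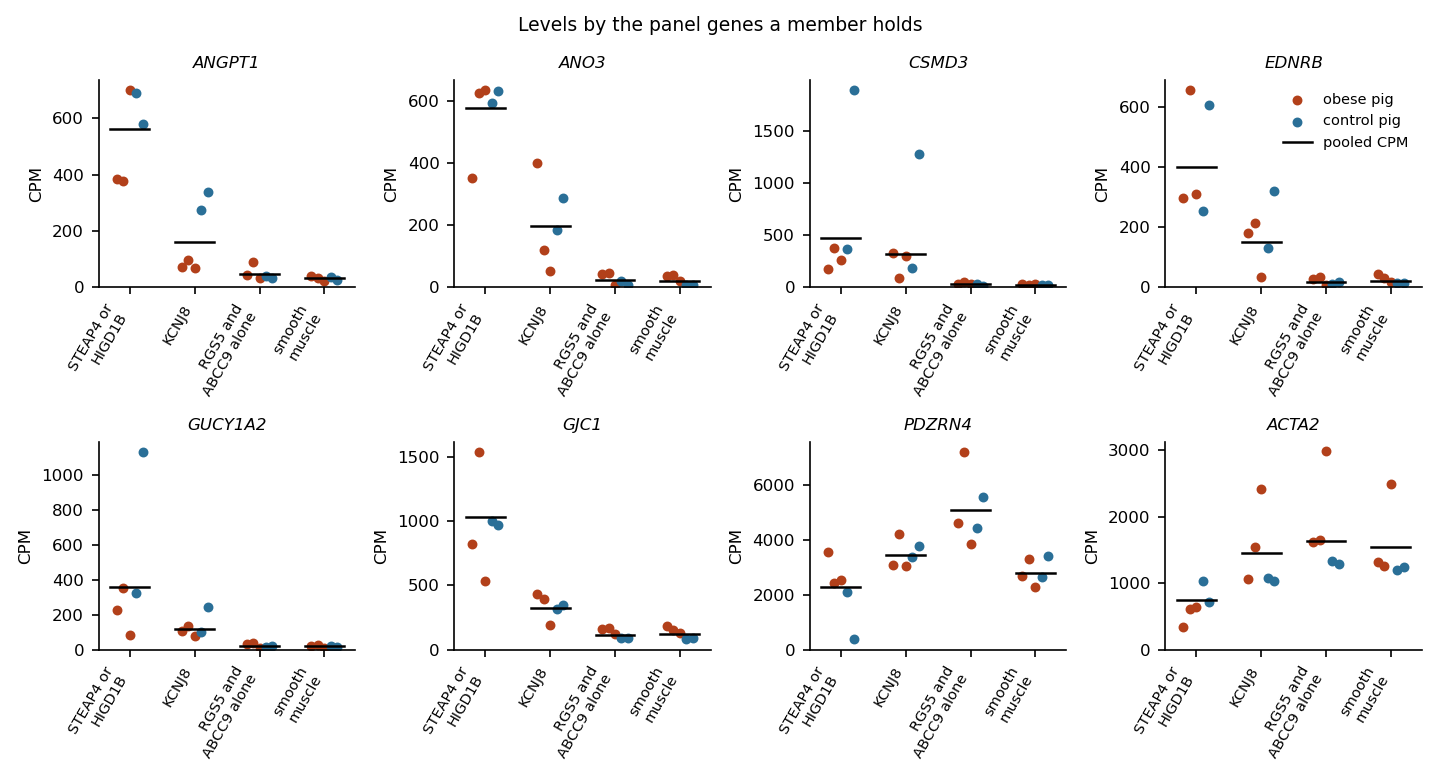
CPM per pig (points, 3 obese and 2 control) and over all pigs (line) for 8 genes in members with STEAP4 or HIGD1B, members with KCNJ8, members with RGS5 and ABCC9 alone, and smooth muscle nuclei. ANGPT1, ANO3, CSMD3, EDNRB, GUCY1A2 and GJC1 are highest with STEAP4 or HIGD1B, PDZRN4 is highest with RGS5 and ABCC9 alone, and ACTA2 is lowest with STEAP4 or HIGD1B.

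The comparison of diets asked how these nuclei differ between obese and chow-fed pigs. RGS5-ABCC9 nuclei made up 4.92%, 5.46% and 3.95% of the nuclei of obese pigs, and 9.65% and 6.93% of those of control pigs. The means were 4.78 ± 0.763% in obese and 8.29 ± 1.92% in control pigs (SD, n = 3 and 2), a difference of -3.51 percentage points. The groups did not overlap, but an exact two-sided permutation test gave p = 0.2, the smallest that 10 assignments of 5 pigs allow. Without control pig 1, which had the highest share and the deepest library, the difference was -2.16 points. At 1000 UMIs per nucleus, with 9058 shallower nuclei left out, the share was 1.17%, 1.19% and 0.919% in obese pigs, and 2.22% and 1.53% in control pigs, again apart (exact permutation p = 0.2).

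Most members (79.3%) hold only RGS5 and ABCC9 of the panel, so their share largely repeats that of all members. It differed in the same way. Members with only these genes made up 3.60%, 4.25% and 3.01% of the nuclei of obese pigs, and 7.92% and 5.67% of those of control pigs. Members with COX4I2 made up 0.342%, 0.564% and 0.408% in obese and 1.02% and 0.807% in control pigs, also with no overlap (exact permutation p = 0.2 for both). Members with KCNJ8, in contrast, made up 0.789%, 0.564% and 0.469% in obese and 0.603% and 0.386% in control pigs, and the groups overlapped (p = 0.6 by the same exact test). Members with STEAP4 or HIGD1B made up 0.210%, 0.158% and 0.0917% in obese and 0.179% and 0.105% in control pigs, which overlapped too (p = 1 by the same exact test). Members with under 3 smooth muscle panel genes averaged 0.447 ± 0.222% in obese and 0.509 ± 0.248% in control pigs, a difference of -0.061 points, and overlapped as well (p = 0.8 by the same exact test). Apart from the last, these subsets were set by panel genes that also chose the members. Their shares are thus a description of the selection, and the p-values do not test those genes. Whether the subsets differ from each other in their diet difference was not tested.

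As a gene of the rule, RGS5 was followed as a description in all 31621 nuclei with 3 or more smooth muscle panel genes, which include 2671 of the members. RGS5 there stood at 174, 186 and 178 CPM in obese pigs, and at 315 and 213 CPM in control pigs. ABCC9 in the same nuclei stood at 112, 133 and 83.8 CPM in obese pigs, and at 121 and 124 CPM in control pigs, which overlapped. A further set, which holds no member, had 3 or more smooth muscle genes, a single panel gene and no UMI of PECAM1, CSF1R or CD163. RGS5 there stood at 306, 288 and 327 CPM in obese pigs, and at 449 and 327 CPM in control pigs, so obese pig 3 and control pig 2 had about the same level. These nuclei were chosen on a panel gene, which for many is RGS5 itself. After thinning, 12.0%, 13.4% and 12.4% of the 31621 nuclei, as far as they had 1000 UMIs, held an RGS5 UMI in obese pigs, and 21.3% and 14.9% in control pigs. Endothelial-marker nuclei, with at least 2 of PECAM1, CDH5, VWF, TIE1 and EMCN and at most 1 smooth muscle panel gene, were a background for free RNA. They held an RGS5 UMI in 2.04%, 2.82% and 3.57% of nuclei in obese pigs and in 0% and 4.08% in control pigs, at 28 to 74 nuclei per pig. The limit on smooth muscle genes leaves out nuclei with more free smooth muscle RNA, so these shares can understate the background. The share of smooth muscle nuclei was 38.8 ± 7.65% in obese and 38.4 ± 3.34% in control pigs, with p = 1 in the exact permutation test.

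**Figure D3:**
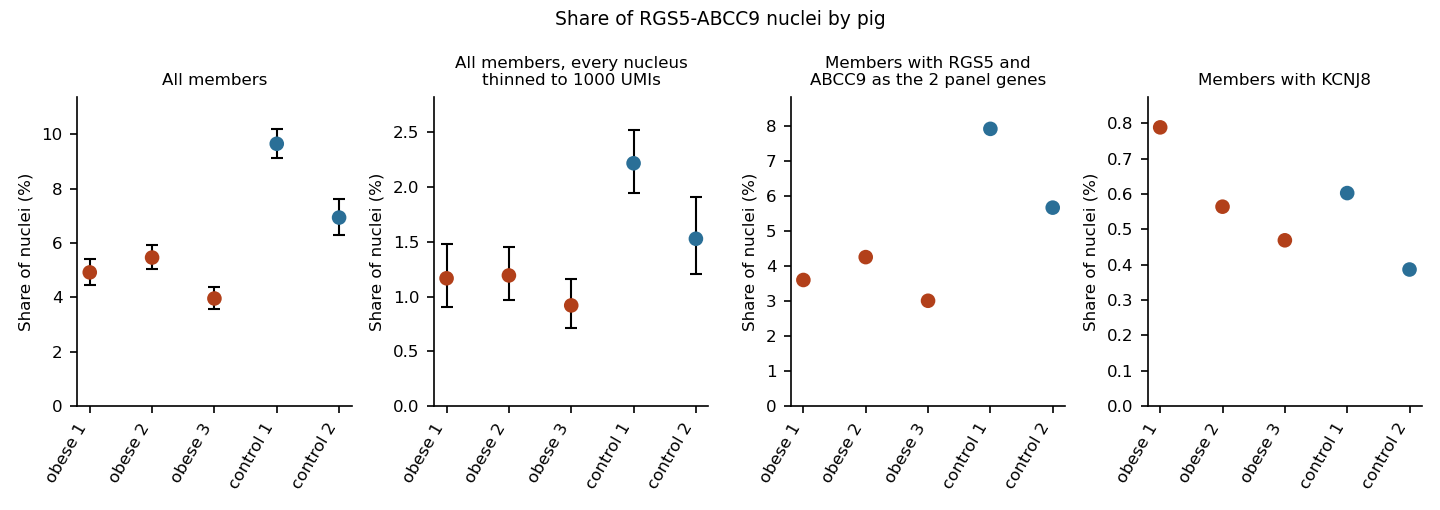
Percent of nuclei with 300 or more genes that were RGS5-ABCC9 nuclei, per pig (3 obese at left, 2 control at right), for all members with exact 95% binomial intervals (counting error only), after thinning to 1000 UMIs, for members with RGS5 and ABCC9 alone, and for members with KCNJ8. Obese pigs lie below both control pigs in the first 3 panels, and the groups overlap for KCNJ8.

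Within the RGS5-ABCC9 nuclei a small number of genes differed between the diets. ZFP36L2, RGS2, DUSP1, CEBPB and the cholesterol exporters ABCA1 and ABCG1 were among those that rose in obese pigs, and SREBF2, SQLE, LAMC3 and ITGB5 fell. UMIs were summed over the member nuclei of each pig and tested with edgeR's quasi-likelihood test over 11583 genes. At a Benjamini-Hochberg adjusted p under 0.05, 29 genes were called (0.25%), of which 24 rose (0.207%) and 5 fell (0.0432%). A gene symbol was available for 23 of those that rose and 4 of those that fell. For each of the 29 the obese and control values lay apart, as they did for 29.3% of all genes tested. Adjusted p-values ran from 0.000849 to 0.0427. Without control pig 1 no gene was called (1262 had an unadjusted p under 0.05, against 1534 with all pigs), without obese pig 1 there were 2 calls, without control pig 2 there were 14, and without obese pig 2 or 3 there were 153 or 103.

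ZFP36L2 and RGS2 had the lowest adjusted p-values. ZFP36L2, an RNA-binding protein that destabilises transcripts with AU-rich elements, stood at 167, 192 and 198 CPM in obese pigs, and at 14.7 and 20.0 CPM in control pigs. It rose by 3.43 ± 0.28 on the log2 scale (SE; edgeR adjusted p = 0.000849). RGS2, a regulator that limits Gq signalling and so vasoconstriction, stood at 147, 104 and 127 CPM in obese pigs, and at 9.01 and 12.4 CPM in control pigs (log2 fold change 3.59 ± 0.32, edgeR adjusted p = 0.00098). Every obese pig lay far above both control pigs for both genes. These were also the genes called without obese pig 1. RGS2 was the only one of 8 RGS genes tested that was called, and the list's median log2 fold change was 0.63.

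Rapidly induced genes formed the largest group. Of 30 immediate early and heat shock genes tested, 4 rose and none fell. The median log2 fold change was 1.27 and 27 were positive, beside a median of 0.01 and 50.9% positive over all genes tested. ZFP36L2 was the first of the 4, and DUSP1, a phosphatase of MAP kinases, was another. DUSP1 stood at 160, 89.1 and 222 CPM in obese pigs, and at 25.2 and 20.7 CPM in control pigs (log2 fold change 2.78 ± 0.40, edgeR adjusted p = 0.0201). KLF2, a transcription factor, stood at 44.8, 26.4 and 38.6 CPM in obese pigs, and at 5.56 and 9.31 CPM in control pigs (2.34 ± 0.40, adjusted p = 0.0422). FOSL2, an AP-1 subunit, stood at 212, 119 and 216 CPM in obese pigs, and at 55.1 and 44.1 CPM in control pigs (1.88 ± 0.32, adjusted p = 0.0427). All 4 were well apart between the groups, and no other gene of the list passed.

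Of 26 inflammation and cytokine genes tested, 3 rose and none fell, with a median log2 fold change of 0.48. All 3 encode nuclear regulators rather than cytokines. NFKBIZ, which encodes the nuclear IκBζ, stood at 808, 434 and 322 CPM in obese pigs, and at 54.0 and 112 CPM in control pigs (log2 fold change 2.64 ± 0.45, edgeR adjusted p = 0.0417). CEBPB stood at 37.5, 46.1 and 40.6 CPM in obese pigs, and at 5.56 and 8.62 CPM in control pigs (2.58 ± 0.33, adjusted p = 0.0187). CEBPD stood at 33.0, 32.7 and 38.9 CPM in obese pigs, and at 7.53 and 4.83 CPM in control pigs (2.45 ± 0.34, adjusted p = 0.0201). CEBPB and CEBPD are related transcription factors, and the narrow obese range of both contrasts with that of NFKBIZ.

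Among receptors, CYSLTR2, the cysteinyl leukotriene receptor 2, was the only one of 21 vasoactive receptors tested that was called. It stood at 30.9, 16.9 and 34.2 CPM in obese pigs, and at 1.98 and 0.345 CPM in control pigs, where 16 and 1 UMIs lay behind the values (log2 fold change 4.26 ± 0.57, edgeR adjusted p = 0.0201). In smooth muscle nuclei its log2 fold change was 1.93, and the difference between the classes, 2.42, did not pass the test (adjusted p = 0.213). limma-voom did not call CYSLTR2 in members (adjusted p = 0.105) and called no vasoactive receptor, whereas DESeq2 called 3. Of 16 genes of phenotypic modulation tested, RUNX1, a transcription factor induced in modulated smooth muscle, was called. It stood at 146, 203 and 96.5 CPM in obese pigs, and at 36.4 and 32.7 CPM in control pigs (2.07 ± 0.29, adjusted p = 0.0201). The list's median was 1.19.

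Of 10 targets of the oxysterol receptor LXR and cholesterol efflux genes tested, 3 rose and none fell, with a median log2 fold change of 1.19 and 6 of the 10 positive. ABCA1, which exports cholesterol to apolipoprotein A-I, stood at 365, 278 and 271 CPM in obese pigs, and at 87.5 and 61.7 CPM in control pigs (log2 fold change 2.02 ± 0.26, edgeR adjusted p = 0.0187). ABCG1, which exports it to HDL, stood at 14.7, 16.1 and 16.3 CPM in obese pigs, and at 2.22 and 2.07 CPM in control pigs (2.84 ± 0.41, adjusted p = 0.0201). MYLIP, a ubiquitin ligase, stood at 57.4, 54.3 and 71.8 CPM in obese pigs, and at 17.7 and 14.8 CPM in control pigs (1.90 ± 0.28, adjusted p = 0.0212). Summed over the list, efflux genes stood at 489, 446 and 411 CPM in obese pigs, and at 162 and 127 CPM in control pigs.

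Of 17 cholesterol synthesis genes and SREBP2 targets tested, 2 fell and none rose. The median log2 fold change was -0.85, and 2 of the 17 were positive. SREBF2, which encodes the transcription factor SREBP2, stood at 28.9, 35.6 and 25.7 CPM in obese pigs, and at 97.7 and 84.1 CPM in control pigs (log2 fold change -1.61 ± 0.23, edgeR adjusted p = 0.0201). SQLE, squalene epoxidase, stood at 8.96, 7.91 and 12.2 CPM in obese pigs, and at 49.4 and 32.7 CPM in control pigs (-2.09 ± 0.33, adjusted p = 0.0296). INSIG1, which retains the SREBP complex in the endoplasmic reticulum, had a lower value without passing the test (log2 fold change -1.98, adjusted p = 0.0731). Summed over the list, these genes stood at 164, 202 and 171 CPM in obese pigs, and at 405 and 417 CPM in control pigs.

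Of the genes of matrix contact, 2 fell. LAMC3, the laminin gamma 3 chain of basement membranes, stood at 21.6, 19.8 and 23.4 CPM in obese pigs, and at 87.0 and 60.3 CPM in control pigs (log2 fold change -1.78 ± 0.26, edgeR adjusted p = 0.0201). It was the only call among 20 basement membrane genes tested. ITGB5, the integrin beta 5 subunit, stood at 125, 182 and 149 CPM in obese pigs, and at 400 and 343 CPM in control pigs (-1.30 ± 0.22, adjusted p = 0.0397), the only call among 21 integrin and adhesion genes. Just short of the threshold were KLHL42, at 15.5, 18.5 and 21.0 CPM in obese and 70.9 and 41.4 CPM in control pigs (adjusted p = 0.0536), and MYO18B, at 44.8, 30.3 and 69.1 CPM in obese and 153 and 163 CPM in control pigs (adjusted p = 0.0629).

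The remaining called genes with a symbol all rose. ATP8B4, a phospholipid-transporting ATPase, had the largest log2 fold change, 4.89 ± 0.69 (edgeR adjusted p = 0.0201), with 30.1, 50.4 and 10.2 CPM in obese and 1.11 and 0.689 CPM in control pigs, where 9 and 2 UMIs lay behind the values. PPP1R3C, a glycogen-targeting phosphatase subunit and the only call among 21 insulin and glucose genes, stood at 13, 16.9 and 6.10 CPM in obese and 0.864 and 1.38 CPM in control pigs (3.48 ± 0.60, adjusted p = 0.0427). Its control values are low, and limma-voom called no gene of that list, whereas DESeq2 called 3. TIPARP, a mono-ADP-ribosyltransferase, stood at 50.9, 47.5 and 30.5 CPM in obese and 7.65 and 6.89 CPM in control pigs (2.53 ± 0.33, adjusted p = 0.0187). The other 7 were LARP6, which binds collagen transcripts, NFIL3, PNRC1, MAPK6, FILIP1L, ISM1 and RNF19A, with log2 fold changes from 1.25 for RNF19A to 2.27 for LARP6. RNF19A, a ubiquitin ligase, stood at 728, 719 and 649 CPM in obese and 296 and 287 CPM in control pigs.

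**Figure D4:**
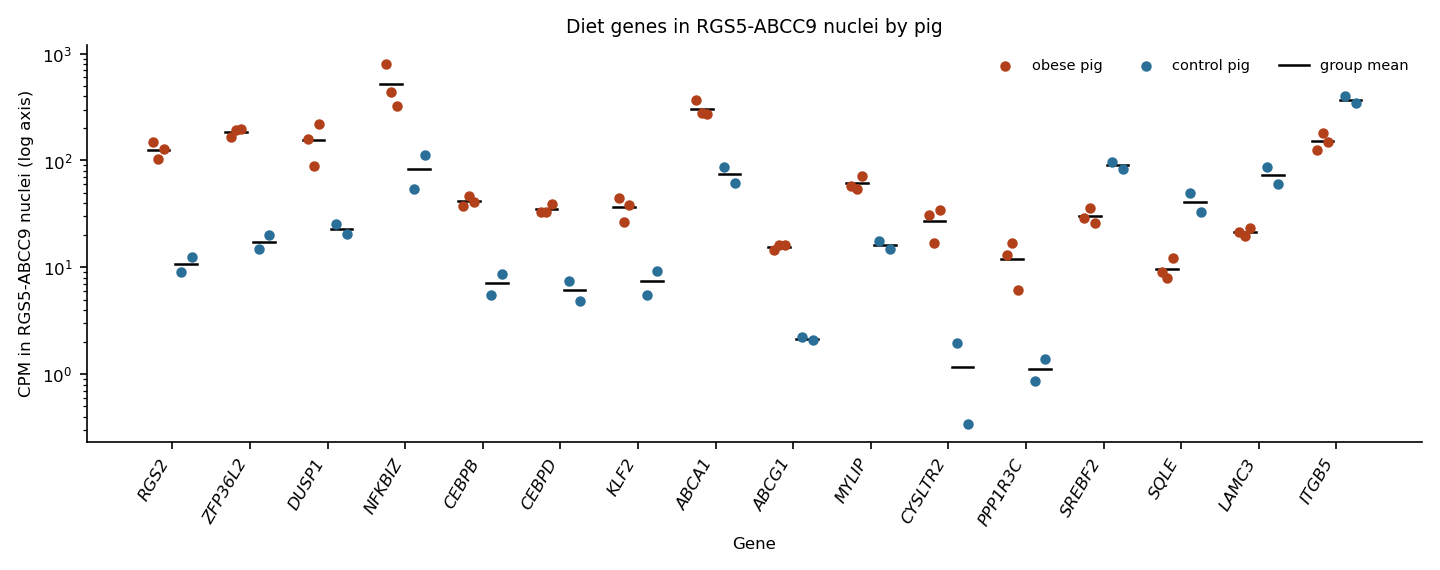
CPM in RGS5-ABCC9 nuclei per pig (3 obese at left, 2 control at right) for 16 genes, on a log axis. The obese and control pigs do not overlap for the called genes shown, with higher obese values for genes such as RGS2, ZFP36L2 and ABCA1 and lower ones for SQLE, SREBF2, LAMC3 and ITGB5.

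Several lists of genes of mural cells had no call. None of the 20 other pericyte genes tested by edgeR passed (8 had an unadjusted p under 0.05), with a median log2 fold change of 0.17. None of the 25 potassium and calcium channel and pump genes passed (median -0.34, 8 with an unadjusted p under 0.05), and the values of 12 of the 25 did not overlap between groups, beside 29.3% of all genes tested. KCNAB1, a potassium channel beta subunit and the most abundant of them, stood at 9678, 8833 and 8656 CPM in obese pigs, and at 6494 and 5952 CPM in control pigs (log2 fold change 0.53, adjusted p = 0.277). Of 9 Notch pathway genes none passed (median -0.26, 2 with an unadjusted p under 0.05), and NOTCH3 stood at 75.7, 113 and 99.9 CPM in obese and at 158 and 198 CPM in control pigs (-0.90, adjusted p = 0.144). Nor did any of 21 other contractile genes (median -0.10), 25 genes of cGMP and cAMP pathways (median 0.04) or 14 of PDGF and angiopoietin pathways (median 0.35) pass, with 5, 4 and 3 of them at an unadjusted p under 0.05. For ANGPT1 the log2 fold change was 0.22 (adjusted p = 0.792). Of 17 hypoxia genes none passed, with a median of 0.71 and 9 at an unadjusted p under 0.05, and HIF1A stood at 658, 286 and 497 CPM in obese and at 195 and 158 CPM in control pigs (1.45, adjusted p = 0.117). limma-voom called none of the genes of these lists, and DESeq2 called 4 hypoxia genes, 2 of the PDGF and angiopoietin pathways and 1 contractile gene.

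Transcripts of other cell types were present in both classes. The 15 macrophage markers summed to 47.2, 81.2 and 29.8 CPM in obese and to 21.5 and 21.7 CPM in control members, and to 168, 520 and 67.5 CPM in obese and 29.6 and 43.9 CPM in control smooth muscle nuclei. CSF1R and CD163 were at 0 in members by the rule, and 1 of the 15 markers was at 0 in every pig. Obese pig 2, which had the highest sum, was also the highest for ATP8B4 and RUNX1 among the members, and the part of the macrophage markers in the called genes was not tested. Endothelial markers summed to 992, 904 and 1189 CPM in obese and to 702 and 927 CPM in control members. In smooth muscle nuclei they summed to 1000, 1016 and 1464 CPM in obese and to 1005 and 1128 CPM in control pigs, higher than in members in each pig. Of 7 endothelial markers at 5 or more CPM, 5 were lower in members in 5 of 5 pigs and none was higher, with a median log2 ratio of -1.11. Only the members were chosen to lack PECAM1. Schwann cell markers summed to 260, 250 and 383 CPM in obese and to 280 and 423 CPM in control members. B and plasma cell markers, a list that holds EBF1, summed to 1997, 2397 and 1430 CPM in obese and to 1743 and 1335 CPM in control members. Fibroblast markers summed to 175, 250 and 323 CPM in obese and to 261 and 359 CPM in control members, and T and NK cell markers summed to 11.4, 28.7 and 7.11 CPM in obese and to 15.3 and 9.31 CPM in control members.

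The same pigs' smooth muscle nuclei gave the comparison. In them, 42 of 16410 genes were called (0.256%), 17 higher in obese pigs (0.104%) and 25 lower (0.152%), and the pigs of the groups were apart for 29.6% of the genes. Both classes share the pigs and libraries, so their values are given side by side only. RGS2 had a log2 fold change of 3.59 in members and 3.27 in smooth muscle nuclei, ZFP36L2 of 3.43 and 2.69, ABCA1 of 2.02 and 1.77, RUNX1 of 2.07 and 1.93, and ITGB5 of -1.30 and -1.29, each in that order of classes. SQLE had -2.09 in members and -1.27 in smooth muscle nuclei, and SREBF2 had -1.61 in members and -1.21 in smooth muscle nuclei. None of the 29 genes called in members passed edgeR's test of a difference of the diet effect between the classes (9 had an unadjusted p under 0.05), nor that of DESeq2 or limma-voom.

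**Figure D5:**
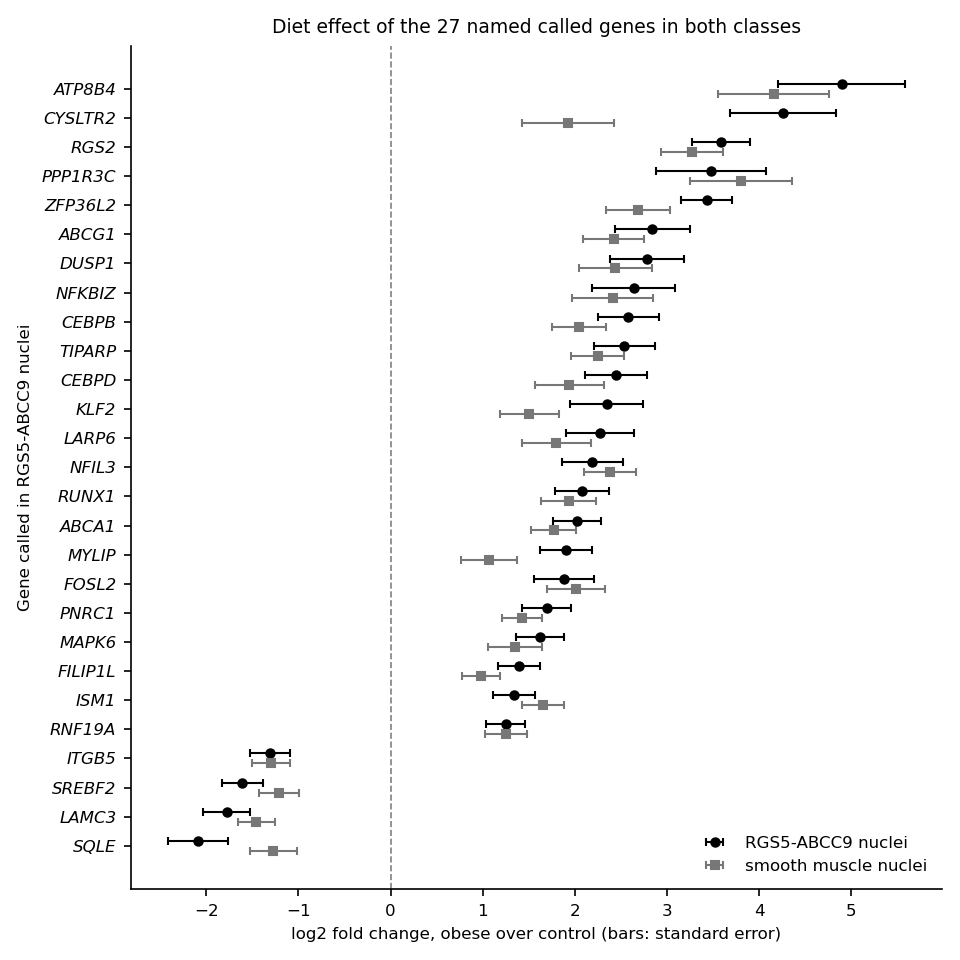
Log2 fold change of obese over control pigs with its standard error for the 27 called genes with a symbol, in RGS5-ABCC9 nuclei (black, upper point of each pair) and smooth muscle nuclei (grey, lower point). Each gene lies on the same side of 0 in both classes.

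Across all genes, the diet effect differed between the classes for 21 of 16035 genes by edgeR's quasi-likelihood test with the pig as a block (0.131%), 16 with a higher effect in members (0.0998%) and 5 with a lower one. For GRIP1, BMP6 and CDON the values separated by diet in smooth muscle nuclei and overlapped in members. GRIP1, a scaffold of glutamate receptors, stood at 6.92, 3.95 and 5.08 CPM in obese and 3.58 and 5.17 CPM in control members, and at 10.8, 9.13 and 7.20 CPM in obese and 108 and 64.7 CPM in control smooth muscle nuclei (log2 difference 3.67 ± 0.40, adjusted p = 0.00149). With smooth muscle nuclei that also lacked PECAM1, CSF1R and CD163, the difference was 1.00 (edgeR adjusted p = 0.935). BMP6, CDON, FGD5, PPFIA2, EPB41L3, FMN1 and NPSR1 likewise did not pass with that comparison class. The depth of the classes differs as given above, and with every nucleus at 1000 UMIs no gene passed (edgeR, 367 with an unadjusted p under 0.05).

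TIMP3, SDC2 and NR4A3 passed with either comparison class. TIMP3, an inhibitor of matrix metalloproteinases, stood at 223, 295 and 294 CPM in obese and 126 and 140 CPM in control members. In smooth muscle nuclei TIMP3 stood at 168, 198 and 227 CPM in obese pigs, and at 188 and 183 CPM in control pigs. The groups did not overlap in members and overlapped in smooth muscle nuclei, with a log2 difference of 0.94 ± 0.14 (adjusted p = 0.0143) and of 0.64 with the stricter class (edgeR adjusted p = 0.0448). With every nucleus at 1000 UMIs the TIMP3 difference turned to -0.26. SDC2, the proteoglycan syndecan 2, stood at 470, 301 and 657 CPM in obese and 339 and 362 CPM in control members. In smooth muscle nuclei SDC2 stood at 627, 606 and 777 CPM in obese pigs, and at 254 and 260 CPM in control pigs. Its log2 difference was -1.01 ± 0.16 (adjusted p = 0.0263), and -0.59 with the stricter class (edgeR adjusted p = 0.0427). NR4A3, a nuclear receptor of the immediate early group, stood at 253, 196 and 185 CPM in obese and 112 and 175 CPM in control members, and at 334, 258 and 329 CPM in obese and 96.4 and 133 CPM in control smooth muscle nuclei (-0.86 ± 0.16, adjusted p = 0.0496; -0.81 with the stricter class, edgeR adjusted p = 0.0443).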

How the data were processed

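Nuclei of 3 obese and 2 control pigs were profiled with a droplet 3′ kit, 1 library per pig. The deposited matrices hold raw UMI counts per gene and nucleus for 35670 features. The authors mapped reads to the pig build Sscrofa11 with Cell Ranger 5.0 per the labels' protocols, whereas the matrix headers name Cell Ranger 7.1.0. They used Seurat 5.0 per the submitters' processing notes. The smallest barcode total was 500 UMIs, and 220 gene symbols were added from a reference table by gene ID. No coordinates or sequences were used.

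The members and the 34 gene lists were chosen with earlier results of these data known. Nuclei with 300 or more genes were kept, and counts were summed per pig and class. Levels are CPM of those sums. The diet effect was tested with edgeR 4.0.16 (R 4.3.3; TMM scaling, filterByExpr, quasi-likelihood F-test, Benjamini-Hochberg adjustment over all genes tested, called under 0.05). The difference between the classes was tested in 1 model with the pig as a block. Shares were compared with exact two-sided permutation tests over pigs (scipy 1.17.1), and their exact (Clopper-Pearson) 95% intervals cover counting error only. Nuclei of the same library are not replicates, and genes of the rule and levels between the classes were given no p-value. The fits were tested on simulated counts.

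Named genes were, for the diet effect, the 12 called genes of largest rise and of largest fall whose pigs did not overlap, filled to 6 by smallest p where fewer were called. For the difference between classes they were up to 6 called genes of each direction, and for levels the 15 highest and 10 lowest ratios at 50 or more CPM with 1 direction in 5 of 5 pigs. Up to 4 called members of each list, or otherwise its 2 most abundant, could be named too. A few genes that met these rules are not reported here. The called genes beyond the 12 were named to complete the calls. Alternatives were RLE size factors, DESeq2 1.42.0, limma-voom (limma 3.58.1), no filter on low counts, each pig left out, a replicate block, stricter member rules, a mitochondrial and doublet filter, and thinning to 1000 UMIs. After thinning, both classes were chosen anew on the thinned counts. Smooth muscle nuclei without PECAM1, CSF1R and CD163, and both classes at 3000 or more UMIs, were added after seeing the data. Doublets were kept in the main results: Scrublet's automatic threshold marked 2 nuclei, so the alternative removed the highest-scoring 3517, of which with the mitochondrial limit 213 were members.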

Additional observations from a re-analysis of the deposited data

Results flagged for a closer look

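Each of the following genes was singled out because its diet effect (obese over control) differed between RGS5-ABCC9 nuclei and smooth muscle nuclei of the same pigs, by edgeR's quasi-likelihood test of the difference itself. Values are log2 differences, positive where the effect was higher in RGS5-ABCC9 nuclei. The difference was 3.67 for GRIP1, 2.09 for BMP6, 2.36 for CDON, 0.94 for TIMP3, 2.06 for FGD5 and 3.04 for PPFIA2. The difference was -1.01 for SDC2, -1.57 for EPB41L3, -1.47 for NPSR1, -2.17 for FMN1 and -0.86 for NR4A3.

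In the members FGD5, a guanine nucleotide exchange factor of endothelium, stood at 8.14, 7.65 and 4.74 CPM in obese and 7.04 and 8.96 CPM in control pigs. In smooth muscle nuclei FGD5 stood at 19.6, 22.3 and 12.1 CPM in obese and 97.9 and 68.0 CPM in control pigs. FMN1, a formin, stood at 21.6, 42.2 and 21.0 CPM in obese and 28.5 and 34.1 CPM in control members, and at 91.0, 323 and 34.7 CPM in obese and 26.3 and 34.0 CPM in control smooth muscle nuclei. EPB41L3, a membrane skeleton protein, stood at 13, 19.2 and 4.74 CPM in obese and 11.4 and 10.7 CPM in control members, and at 57.0, 109 and 17.3 CPM in obese and 18.6 and 16.9 CPM in control smooth muscle nuclei. For FMN1 and EPB41L3 obese pig 2 was the highest of the smooth muscle values, as it was for the summed macrophage markers there (168, 520 and 67.5 CPM in obese and 29.6 and 43.9 CPM in control pigs), and the part of those markers was not tested. With smooth muscle nuclei that lacked PECAM1, CSF1R and CD163 the log2 difference was 0.31 for FGD5, -0.71 for FMN1 and -0.45 for EPB41L3, none of which passed the test (edgeR adjusted p = 0.998, 0.622 and 0.998).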

How the results depend on the processing

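The 29 diet calls in RGS5-ABCC9 nuclei became 225 with DESeq2, 505 without a filter on low counts and 3 at 1000 UMIs per nucleus (201 with an unadjusted p under 0.05), and 0 to 153 when a pig was left out. They became 0 with at least 3 panel genes, with at least 2 panel genes other than RGS5, and with members under 3 smooth muscle panel genes (294, 458 and 224 with an unadjusted edgeR p under 0.05), where fewer nuclei entered. RLE size factors gave 29, limma-voom 25, the mitochondrial and doublet filter 26 and a minimum of 3000 UMIs 28 calls, of which 29, 23, 25 and 27 were among the 29. All 29 kept their direction in every alternative that tested them. The smooth muscle calls (42) became 612 with DESeq2, 17 with limma-voom, 996 without the filter, 27 without PECAM1, CSF1R and CD163, 24 after thinning and 0 to 387 without a pig, with 0 without obese pig 1 or either control pig (1601, 1346 and 1925 with an unadjusted edgeR p under 0.05). The calls of a difference between the classes (21) became 204 without the filter, 33 without RGS5 in the rule, 3 with members under 3 smooth muscle genes, 10 with the stricter smooth muscle class, 13 at 3000 or more UMIs, 0 after thinning (367 with an unadjusted edgeR p under 0.05) and 2 to 78 without a pig. The genes higher in members (21) became 61 with at least 3 panel genes, 87 without RGS5 in the rule, 115 with members under 3 smooth muscle genes, 13 with the stricter class and 89 after thinning. The difference in share ran from -4.87 to -2.16 points without a pig, and was -0.061 points with overlapping groups (exact permutation p = 0.8) where members with 3 or more smooth muscle genes were left out. With at least 3 panel genes the mean share was 0.289% in obese and 0.533% in control pigs. With at least 2 panel genes other than RGS5 it was 0.691% and 0.908%. The groups stayed apart under both of these rules (exact permutation p = 0.2 for each).

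Directions turned for single values. The class difference after thinning was -1.06 for BMP6, -0.26 for TIMP3 and -0.97 for FGD5, and with members under 3 smooth muscle genes it was 0.76 for NPSR1. The log2 level ratio with members under 3 smooth muscle genes was -0.44 for CNTN1, -0.056 for SEMA3E and -0.29 for EFEMP1, and after thinning it was -0.38 for CNTN1, -0.0028 for SEMA3E, -0.42 for EFEMP1 and -0.023 for PTGER3. The causes were not tested.

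A replicate block, for the numbers 1 and 2 that both groups carry, gave 293 diet calls in members, 586 in smooth muscle nuclei and 72 differences between classes, on 1 residual degree of freedom among pigs. All 29 calls were among the 293. The deviations of same-numbered pigs correlated at 0.122 and 0.0217 across genes. With 2 control pigs each such value is mirrored by construction, so these do not tell whether the numbers mark a shared batch or day, and no label says that they do. A diet test within the 69 nuclei with STEAP4 or HIGD1B was not run.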

Other observations

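Several groups of genes in the RGS5-ABCC9 nuclei had no called member between the diets by edgeR's quasi-likelihood test. Of 34 gene lists, 24 had none. These 24 count the 3 lists made of genes of the rule, which were not tested and so could have no call. Of 26 interstitial matrix genes tested, the median log2 fold change was -0.11, and COL8A1, a short-chain collagen, stood at 1953, 2298 and 4411 CPM in obese and at 3142 and 2010 CPM in control members. FN1, fibronectin, stood at 1334, 574 and 1482 CPM in obese and at 571 and 572 CPM in control members (log2 fold change 1.00, adjusted p = 0.277), so obese pig 2 lay with the control pigs. Of 27 TGF-β and BMP pathway genes the median was 0.11, and LTBP1, which binds latent TGF-β, stood at 2778, 1968 and 2311 CPM in obese and at 1701 and 1673 CPM in control members (0.48, adjusted p = 0.411). Of 22 fatty acid genes the median was -0.15, and of 12 glucocorticoid response genes it was 0.27. At an unadjusted edgeR p under 0.05 there were 7 interstitial matrix, 5 TGF-β and BMP, 5 fatty acid and 3 glucocorticoid response genes, and DESeq2 called 1, 1, 2 and 2 of these lists and limma-voom none.

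Between the classes, the members stood higher in 5 of 5 pigs for 11 of 25 genes of cGMP and cAMP pathways and lower for 8, beside 9.02% higher and 25.4% lower over all genes at 5 or more CPM. PRKG1, the cGMP-dependent protein kinase, averaged 9274 ± 744 CPM in members and 7593 ± 403 CPM in smooth muscle nuclei (SD, n = 5). Of 25 potassium and calcium channel and pump genes, 8 were higher and 4 lower in members in 5 of 5 pigs, and KCNAB1 averaged 7923 CPM in members and 6347 CPM in smooth muscle nuclei. Of 30 immediate early and heat shock genes, none was higher and 20 were lower in members in 5 of 5 pigs, with a median log2 ratio of -0.35. These are descriptions, and members were also the deeper nuclei.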
